A study of Mus musculus with 6 samples.

Results

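Tumour necrosis factor (TNF) superfamily ligands and their receptors were examined in mouse AE9a leukaemia cells sorted after oil or tamoxifen injection. Members were the rows of the gene count table whose symbols begin with Tnfsf (ligands) or Tnfrsf (receptors) followed by a number. This rule gave 31 members, 11 ligands and 20 receptors, of 23608 rows. Superfamily genes that carry other symbols, such as Tnf and Fas, fell outside it and are described separately.

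Cells of both groups came from fetal livers of Usp18+/f mice and carried 1 floxed Usp18 allele and a Cre recombinase that tamoxifen activates. The cells had been transduced with a retrovirus encoding AE9a, which is AML1-ETO shortened at its end and drives leukaemia in mice, together with GFP, and were transplanted into irradiated wild type C57BL/6 recipients. Mice in the study were 8 to 12 weeks old. Once the recipients were sick they received oil (Usp18+/f) or tamoxifen (Usp18+/Δ), and GFP+ Lin- c-Kit+ splenocytes were sorted 3 days after the first injection, with 3 mice in each group. Both groups carried Cre and only 1 received tamoxifen, so effects of the drug and of the deletion cannot be told apart. Libraries are named here by the numbers in the count table, oil 1, 3 and 4 and tamoxifen 1, 2 and 4. The comparison addressed which ligands and receptors of the superfamily differed after the Usp18 deletion was induced.

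TNF superfamily ligands are mostly trimeric proteins of the cell surface that can also be shed, and their receptors carry cysteine-rich repeats outside the cell. Receptors with a death domain inside the cell can assemble a complex that activates caspases. Most others bind TRAF adaptor proteins and signal to NF-kB and MAP kinases, and a few bind ligand without signalling and act as decoys. Many members are known from lymphocytes and dendritic cells, where they serve as co-stimulatory or survival signals, and TRAIL (Tnfsf10) is known as an interferon-inducible ligand that can kill tumour cells.

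Totals of the estimated counts ran from 17118964 to 20741399 per library. Usp18, the targeted gene and an interferon-inducible one, had 9.12, 11.0 and 11.2 CPM (counts scaled to the TMM-adjusted total of the tested genes) in oil 1, 3 and 4 and 15.1, 28.0 and 19.4 CPM in tamoxifen 1, 2 and 4. Every library labelled tamoxifen was thus above every oil library, although that group is labelled as having lost 1 allele. The gene is interferon-inducible and 1 allele remained, so its total count cannot test the labels. All directions below rest on these labels. The count is summed over the gene and does not separate the floxed part from the rest. Exons of Usp18 also overlap Gm44148 on the opposite strand, and the strand setting of the counting is not given in the sources used here. The difference was not called (log2 fold change 1.0 ± 0.23 SE, edgeR adjusted p-value 0.0739). A gene was called at an adjusted p-value under 0.05 in edgeR's quasi-likelihood test, with Benjamini-Hochberg adjustment over the 11614 genes tested. That test called 203 genes higher in tamoxifen (1.75% of the tested genes) and 31 lower (0.267%). Tamoxifen 4 stood apart from tamoxifen 1 and 2, and without it 2278 of 11851 genes were called higher (19.2%) and 2024 lower (17.1%). With DESeq2 on all 6 libraries, the shares were 6.14% higher and 1.99% lower.

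The sorted cell type was checked against marker lists. Of 14 stem and progenitor genes, Kit, Runx1, Myb, Gata2 and Spi1 were above 70 CPM in the mean of each group, whereas Elane, Cebpe, Flt3 and Meis1 had no count. Cebpa had at most 2 counts in a library, Mpo at most 4 and Gfi1 at most 16. Ctsg, a granule gene like Elane and Mpo, had 16, 20 and 28 counts in oil 1, 3 and 4, against 44, 96 and 56 in tamoxifen 1, 2 and 4 (edgeR adjusted p-value 0.0746). Kit, the receptor used for the sort, was at 447 ± 6.29 CPM in oil and 627 ± 169 CPM in tamoxifen (SD, n = 3). Cd34, the 1 called gene of that list, was at 9.95 CPM in oil and 96.3 CPM in tamoxifen. The 7 natural killer cell markers were at 0 in every library, as was Cd3e among the T cell markers and Ms4a1 and Pax5 among the B cell markers. Other genes of the T cell and B cell lists were detected. No count was found for 7 of the 12 T cell markers, whereas Foxp3 averaged 11.0 CPM and Lck 2.82 CPM in oil. Only 2 of the 10 B cell and plasma cell markers were without a count. Their sum was at most 1.07 CPM in an oil library and at least 2.85 CPM in a tamoxifen library. Of 13 mast cell and basophil markers all were tested and 2, Fcer1a and Tpsb2, were called higher in tamoxifen. Tpsb2 had 2, 6 and 6 counts in oil 1, 3 and 4 and passed the low-count filter only through the tamoxifen libraries. The summed level of the 13 markers was 4528 to 4787 CPM in the oil libraries and 5251 to 10031 CPM in the tamoxifen libraries, lowest in tamoxifen 4. Erythroid and megakaryocyte markers summed to 3918 to 6065 CPM in oil and 3163 to 7532 CPM in tamoxifen, with 1 of 10 tested called in each direction, and neutrophil markers to at most 1.06 CPM. The summed mast cell level therefore moved with the groups and with the library that stood apart, but not every gene of the list did. Of the 13 markers, 8 had all tamoxifen libraries above all oil libraries, where 13.3% of all tested genes did. Ms4a2 was at 896 CPM in oil and 872 CPM in tamoxifen. In tamoxifen 2, Cma1 and Cpa3 reached 2170 and 1064 CPM. The part of this list in the results that follow was not tested. In sorted bulk cells, fewer cells of a type and less RNA per cell cannot be told apart.

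Of the 31 members 3 were called, all higher in the libraries labelled tamoxifen. They were Tnfrsf21 (3.70-fold), Tnfsf4 (7.73-fold) and Tnfsf10 (1.49-fold). They made up 20% of the 15 tested members, beside 1.75% of all tested genes called higher. Of all members they were 9.68%, beside 203 of all 23608 rows. Tnfsf4 passed the low-count filter only through the tamoxifen libraries, so these shares are not independent of its level there. No member was called lower by edgeR, DESeq2 or limma-voom, and 0 of the members had an unadjusted p-value under 0.05 in that direction, where 7.99% of all tested genes did. In the other direction 5 did, where 12.6% of all tested genes did. DESeq2 called 5 members higher, adding Tnfrsf18 and Tnfrsf26, where it called 6.14% of all genes, and limma-voom called 1, Tnfrsf21. When any single library other than tamoxifen 4 was left out, no member was called, and without tamoxifen 4 there were 8 called higher of 18 tested, beside 19.2% of all genes. The summed level of all members was 185, 185 and 179 CPM in oil 1, 3 and 4 and 292, 305 and 234 CPM in tamoxifen 1, 2 and 4. Of these counts the receptors had 126 to 133 CPM in oil and 165 to 219 CPM in tamoxifen, and the ligands 52.0 to 53.7 CPM and 69.7 to 88.1 CPM. All 3 tamoxifen libraries lay above all 3 oil libraries for both sums. Most of the difference in the receptor sum came from Tnfrsf21, with means of 17.4 CPM in oil and 64.3 CPM in tamoxifen. Most of that in the ligand sum came from Tnfsf10, with means of 39.3 and 58.5 CPM.

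**Figure D1:**
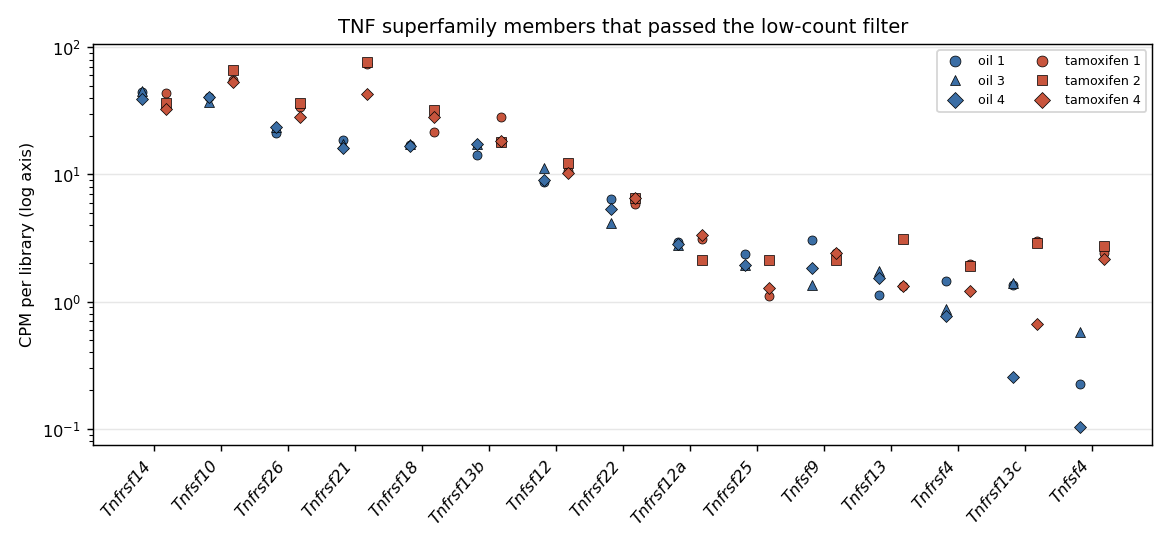
Level of each tested member in every library, on a log axis of CPM, with oil libraries in blue and tamoxifen libraries in red. Tnfrsf21 and Tnfsf4 have the widest gaps between the groups, and the groups of Tnfrsf14, with an oil mean of 43.3 CPM, overlap.

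Levels of the members ranged from no count to 76.2 CPM in a library. In oil, 14 members reached a mean of 1 CPM, 4 ligands and 10 receptors, and 6 reached 10 CPM. In all, 15 members passed the low-count filter and were tested, 5 ligands and 10 receptors, which was 48.4% of the members beside 49.2% of all rows. Another 9 were detected at low counts and 7 had no count in any library. Levels between members were compared as mean CPM per kilobase of exon. On this scale Tnfrsf14, the herpesvirus entry mediator HVEM, was highest at 30.1 in oil and 26.2 in tamoxifen. Tnfrsf18, the co-stimulatory receptor GITR, followed at 11.2 and 18, and the ligand Tnfsf10 at 7.46 and 11.1. Tnfrsf26 (7.08), Tnfsf12 (6.42) and Tnfrsf13b (5.76) came next in oil. Tnfrsf21 was below these in oil at 4.23 and, at 15.7 in tamoxifen, above all but Tnfrsf14 and Tnfrsf18. The other 8 tested members were between 0.165 (Tnfsf4) and 1.61 (Tnfsf9) in oil and between 0.658 (Tnfrsf25) and 1.80 (Tnfsf9) in tamoxifen.

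**Figure D2:**
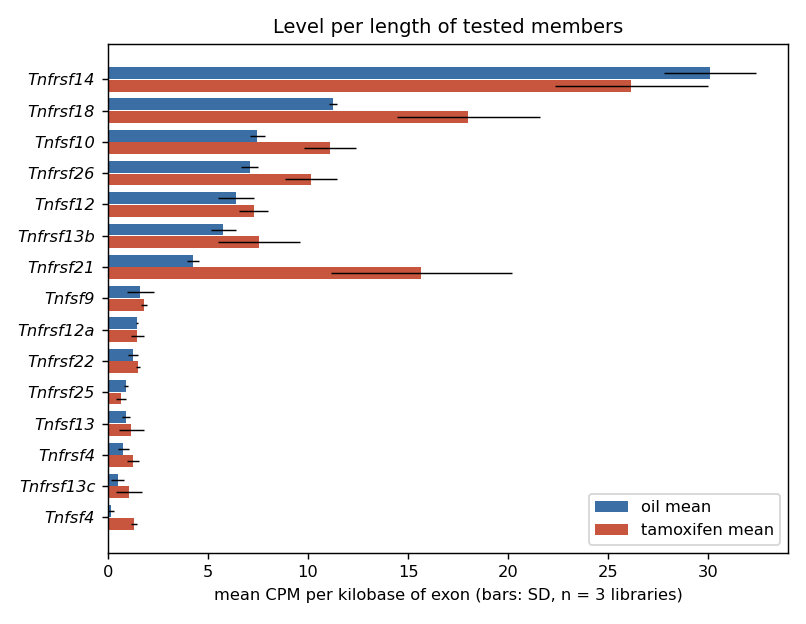
Mean CPM per kilobase of exon of the 15 tested members in oil (blue) and tamoxifen (red), with bars for the SD over 3 libraries. Tnfrsf14 is the highest in both groups, and Tnfrsf21 goes from 4.23 in oil to 15.7 in tamoxifen.

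Because Tnfrsf21 and Tnfsf10 were called and Tnfrsf18 was the next most abundant receptor by length after HVEM, the sequences upstream of these 3 genes are shown. Each is the 250 bases before the start of the gene in RefSeq on build GRCm38.p6, read 5′ to 3′ on the plus strand. The windows are chr17:43016305-43016554 for Tnfrsf21, chr3:27316827-27317076 for Tnfsf10 and chr4:156026072-156026321 for Tnfrsf18. The gene starts in GENCODE, 27317028 for Tnfsf10 and 156026164 for Tnfrsf18, fall inside these windows. By that annotation the ends of these 2 windows are within the gene. Capitals mark a match to the interferon-gamma-activated-site-like motif TTCNNNGAA.
Tnfrsf21: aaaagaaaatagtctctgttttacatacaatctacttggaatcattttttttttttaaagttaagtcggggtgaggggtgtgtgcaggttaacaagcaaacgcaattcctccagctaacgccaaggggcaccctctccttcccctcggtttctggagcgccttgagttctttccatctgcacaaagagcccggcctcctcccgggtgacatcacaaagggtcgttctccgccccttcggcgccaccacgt
Tnfsf10: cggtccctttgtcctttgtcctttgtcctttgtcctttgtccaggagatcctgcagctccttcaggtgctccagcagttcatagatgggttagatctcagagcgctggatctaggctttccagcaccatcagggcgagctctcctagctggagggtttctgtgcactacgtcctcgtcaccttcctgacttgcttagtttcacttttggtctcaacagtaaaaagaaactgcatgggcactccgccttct
Tnfrsf18: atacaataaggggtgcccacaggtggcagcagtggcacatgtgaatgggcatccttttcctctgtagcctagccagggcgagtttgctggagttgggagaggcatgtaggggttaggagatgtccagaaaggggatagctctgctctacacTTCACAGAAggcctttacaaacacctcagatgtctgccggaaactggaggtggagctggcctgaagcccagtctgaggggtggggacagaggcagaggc
The Tnfrsf21 window held 12 CpG dinucleotides at 50.4% GC, against medians of 6 CpG and 52.4% GC over all 32851 promoters. Tnfsf10 held 6 CpG at 51.6% GC and Tnfrsf18 held 2 at 56.0% GC. In windows of 300 bases that also take in 50 bases after the start, 4 motifs were searched on both strands. TTCNNNGAA was in 6 of 28 promoters of members and in 8.30% of all promoters. GAAANNGAA, the core of an interferon-stimulated response element, was in 6 of the 28, of Tnfrsf14, Tnfrsf17, Tnfrsf1b, Tnfrsf4, Tnfsf13b and Tnfsf8, and in 8.56% of all promoters. The kappaB consensus and the p53 motif were each in 3 of the 28, and in 8.46% and 8.36% of all promoters. The p53 matches were in Tnfrsf25 and in 2 overlapping windows of Tnfsf13b that share the same site. The letters of none of these 4 motifs were found in the windows of Tnfrsf21 and Tnfsf10. The match of Tnfrsf18 lay 99 bases before the RefSeq start, which is after the GENCODE start. Overlapping matches to different motifs were counted for each, and 24 of the 31 members had a promoter in the table. The called member Tnfsf4 had none, nor had Tnfrsf10b and Tnfrsf26, so no motif was searched for them.

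Among the ligands, TRAIL (Tnfsf10, chromosome 3, 27317028 to 27342427) was the most abundant by CPM per kilobase. It had 40.3, 37.0 and 40.5 CPM in oil 1, 3 and 4 and 55.6, 66.2 and 53.5 CPM in tamoxifen 1, 2 and 4. The groups did not overlap, and tamoxifen 2 was the highest library. The means were 39.3 ± 1.96 and 58.5 ± 6.83 CPM (SD, n = 3), and the log2 fold change was 0.57 ± 0.11 (SE, edgeR adjusted p-value 0.0438). With the table's replicate numbers as a block this call was lost, at an edgeR adjusted p-value of 0.340, and limma-voom gave an adjusted p-value of 0.0676. In the block fit oil 3 and tamoxifen 2 have no partner of the same number and do not inform the group difference.

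OX40 ligand (Tnfsf4, chromosome 1, 161395409 to 161418410), a co-stimulatory ligand of T cells, showed the largest fold change among the tested members. It had 0.225, 0.582 and 0.103 CPM in oil 1, 3 and 4 and 2.41, 2.72 and 2.15 CPM in tamoxifen 1, 2 and 4. All tamoxifen libraries, tamoxifen 4 included, were at least 2 CPM, and no oil library reached 1 CPM. Behind these levels stood 4, 12 and 2 counts in oil 1, 3 and 4 against 44, 46 and 39 in tamoxifen 1, 2 and 4. The ratio of the summed counts, scaled to library size, was 7.78 with an exact 95% interval of 4.73 to 13.5 that covers counting error only. The log2 fold change was 2.95 ± 0.52 (SE, edgeR adjusted p-value 0.0399). It was 3.85 without oil 3, the highest oil library, and 3.78 with the replicate block. Of the 3 oil libraries 2 were under the low-count filter, so the gene was tested through the tamoxifen libraries. Its adjusted p-value was 0.0545 with limma-voom and up to 0.209 in edgeR when 1 library was left out.

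TWEAK (Tnfsf12), a ligand that acts on many tissues through Fn14, was the second ligand by CPM per kilobase. It had 8.78, 11.3 and 9.11 CPM in oil 1, 3 and 4 and 10.6, 12.3 and 10.2 CPM in tamoxifen 1, 2 and 4, with overlapping groups and an edgeR adjusted p-value of 0.542. APRIL (Tnfsf13), a B cell and plasma cell survival ligand, had 1.13, 1.74 and 1.54 CPM and 1.32, 3.13 and 1.33 CPM in the same order. Only tamoxifen 2 was above the oil range (edgeR adjusted p-value 0.619). The Tnfsf12 and Tnfsf13 genes lie 0.5 kb apart on chromosome 11, and exons of both are shared with the read-through gene Tnfsfm13 on the same strand, so their counts are uncertain. CD137 ligand (Tnfsf9), a co-stimulatory ligand, had 3.04, 1.36 and 1.85 CPM in oil 1, 3 and 4. Its tamoxifen values of 2.41, 2.13 and 2.43 CPM fell inside the oil range (edgeR adjusted p-value 0.798).

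The remaining 6 ligands were below the filter. LIGHT (Tnfsf14), a ligand of HVEM and the lymphotoxin beta receptor, is named after its values were seen. It had 0, 0 and 3 counts in oil 1, 3 and 4, against 14, 26 and 1 in tamoxifen 1, 2 and 4. Tamoxifen 4 was inside the oil range, and the ratio of summed counts was 14.8 with a counting interval of 4.74 to 74.9. BAFF (Tnfsf13b), the other B cell survival ligand, had 8 counts in oil and 9 in tamoxifen over the 3 libraries of each. No count was left after rounding for Tnfsf8 (CD30 ligand), Tnfsf11 (RANK ligand), Tnfsf15 (TL1A) and Tnfsf18 (GITR ligand). A count of 0 allows up to 3 counts, or 0.145 to 0.177 CPM in a library.

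Among the death domain receptors, death receptor 6 (Tnfrsf21, chromosome 17, 43016555 to 43089189) had the smallest p-value of all members and ranked 14 among the 11614 tested genes. It had 18.7, 17.3 and 16.3 CPM in oil 1, 3 and 4 and 73.9, 76.2 and 42.9 CPM in tamoxifen 1, 2 and 4. The groups were far apart, and tamoxifen 4 lay between the oil libraries and tamoxifen 1 and 2. The means were 17.4 ± 1.22 and 64.3 ± 18.6 CPM (SD, n = 3), with a log2 fold change of 1.89 ± 0.22 (SE, edgeR adjusted p-value 0.0173). It was called by edgeR, DESeq2 and limma-voom (adjusted p-value 0.0383), and with the replicate block, which rests on oil 1 and 4 and tamoxifen 1 and 4. Leaving out 1 library moved its log2 fold change between 1.75 and 2.11. The edgeR adjusted p-value then rose to as much as 0.145, with the unadjusted p-value at or below 0.000206, and 8 to 16 genes of the whole table were called higher in the fits that left out a library other than tamoxifen 4.

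Death receptor 3 (Tnfrsf25), the receptor of TL1A, had 2.36, 1.94 and 1.96 CPM in oil 1, 3 and 4 and 1.10, 2.13 and 1.27 CPM in tamoxifen 1, 2 and 4. Tamoxifen 2 lay within the oil range, and the edgeR adjusted p-value was 0.431. The TRAIL receptor (Tnfrsf10b), the death receptor through which TRAIL signals in mice, was below the filter and is named after its values were seen. It had 1, 1 and 2 counts in oil 1, 3 and 4, against 13, 25 and 10 in tamoxifen 1, 2 and 4. All tamoxifen libraries were above all oil libraries, the ratio of summed counts was 13.0, and the counting interval of 4.77 to 49.8 was wide. Without the low-count filter its edgeR adjusted p-value was 0.0416. With 1 library left out it was tested in 6 fits and called only in the 1 without tamoxifen 4. Its edgeR adjusted p-value was up to 0.217 in these fits. TNF receptor 1 (Tnfrsf1a) had 12 counts in oil, 10 of them in oil 1, and 6 in tamoxifen. The summed level of the death domain receptors was 18.3 to 21.7 CPM in oil and 75.8, 80.1 and 44.7 CPM in tamoxifen 1, 2 and 4 and followed Tnfrsf21.

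**Figure D3:**
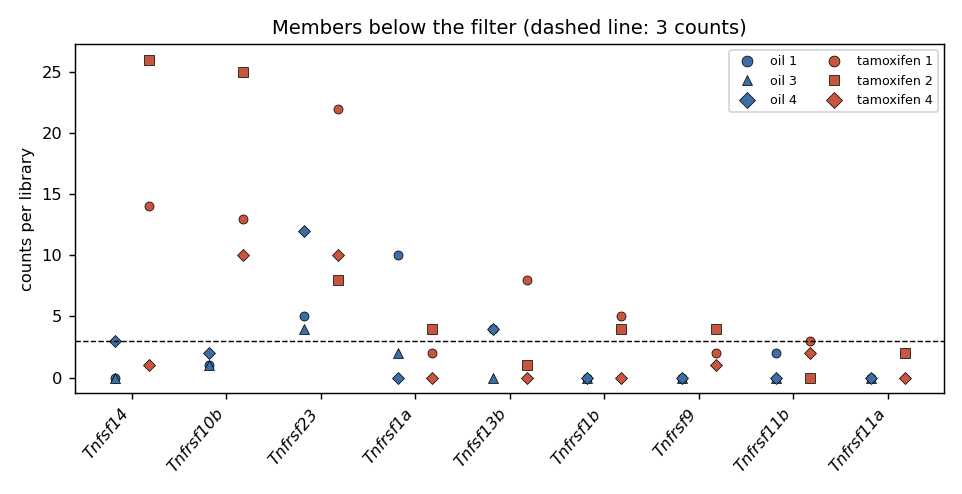
Rounded counts in every library for the 9 members that were detected but fell below the low-count filter, with oil in blue and tamoxifen in red. Tnfrsf10b and Tnfsf14 reach 25 and 26 counts in tamoxifen 2 and have at most 2 and 3 counts in any oil library.

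The receptors that bind TRAF proteins included Tnfrsf14 and Tnfrsf18, the highest members by CPM per kilobase. HVEM (Tnfrsf14), which binds LIGHT, had 44.6, 45.7 and 39.5 CPM in oil 1, 3 and 4 and 43.6, 36.4 and 32.8 CPM in tamoxifen 1, 2 and 4. The groups overlapped through tamoxifen 1, and the edgeR adjusted p-value was 0.384 (log2 fold change -0.20 ± 0.13 SE). GITR (Tnfrsf18, chromosome 4, 156026164 to 156028895), known from regulatory T cells, had 17, 17.4 and 16.9 CPM and 21.5, 32.2 and 28.5 CPM. The oil libraries were within 1 CPM of each other and all tamoxifen libraries were higher, with tamoxifen 1 nearest to oil. Its log2 fold change of 0.68 ± 0.16 (SE) missed the threshold in edgeR (adjusted p-value 0.0768) and passed it in DESeq2 (adjusted p-value 0.0051). The T cell marker list beside it was at 13.5 to 14.4 CPM in oil and 10.6 to 13.6 CPM in tamoxifen, 7 of its 12 genes in the table were at 0, and Foxp3 was at 11.0 ± 0.689 and 9.49 ± 0.779 CPM. An opposite-strand gene, Gm16008, overlaps exons of Tnfrsf18, and the strand setting of the counting is not given in the sources used here.

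OX40 (Tnfrsf4), the receptor of OX40 ligand, lies 9.6 kb from Tnfrsf18 on chromosome 4. It had 1.46, 0.872 and 0.772 CPM in oil 1, 3 and 4 and 1.98, 1.89 and 1.22 CPM in tamoxifen 1, 2 and 4. Oil 1 was above tamoxifen 4, and the log2 fold change was 0.71 ± 0.38 (SE, edgeR adjusted p-value 0.318). Fn14 (Tnfrsf12a), the TWEAK receptor, had 2.93, 2.76 and 2.83 CPM in oil and 3.13, 2.13 and 3.31 CPM in tamoxifen in the same order. The oil values lay within the tamoxifen range (log2 fold change 0.01 ± 0.26 SE, edgeR adjusted p-value 0.985).

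A pair of receptors of the B cell survival ligands were tested. TACI (Tnfrsf13b), which binds APRIL and BAFF, had 14.3, 17.3 and 17.5 CPM in oil 1, 3 and 4 and 28.1, 17.8 and 18.2 CPM in tamoxifen 1, 2 and 4. The groups did not overlap, but tamoxifen 2 and 4 were within 1 CPM of the highest oil library (log2 fold change 0.39 ± 0.20 SE, edgeR adjusted p-value 0.305). The BAFF receptor (Tnfrsf13c) had 1.35, 1.41 and 0.257 CPM in oil and 3.02, 2.89 and 0.663 CPM in tamoxifen. The last library of each group was low, and the log2 fold change of 1.12 ± 0.69 (SE) was not called (edgeR adjusted p-value 0.373). Without tamoxifen 4 it was called, at an edgeR adjusted p-value of 0.0424. The summed B cell and plasma cell markers were at 0.309 to 1.07 CPM in oil and 2.85 to 3.43 CPM in tamoxifen, and their part in these 2 receptors was not tested. BCMA (Tnfrsf17) had no count in any library.

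Tnfrsf26, Tnfrsf22 and Tnfrsf23 lie next to each other on chromosome 7, with gaps of 6.1 and 16.1 kb. Where their sequences are alike the counting could have split reads among them, which was not tested. Tnfrsf22 and Tnfrsf23 are decoy receptors of TRAIL. Tnfrsf26 had 21.3, 23.6 and 23.6 CPM in oil 1, 3 and 4 and 33.8, 36.1 and 28.1 CPM in tamoxifen 1, 2 and 4. All tamoxifen libraries were above all oil libraries, with tamoxifen 4 the closest (log2 fold change 0.52 ± 0.13 SE, edgeR adjusted p-value 0.0838, DESeq2 adjusted p-value 0.0114). Tnfrsf22 had 6.36, 4.17 and 5.35 CPM and 5.82, 6.49 and 6.52 CPM in the same order. Its groups overlapped through oil 1 (edgeR adjusted p-value 0.509). Tnfrsf23 was below the filter, with 21 counts in oil and 40 in tamoxifen, 22 of them in tamoxifen 1. Exons of Tnfrsf26 and Tnfrsf23 overlap E230032D23Rik on the opposite strand.

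Of the other receptors below the filter, TNF receptor 2 (Tnfrsf1b), CD137 (Tnfrsf9) and RANK (Tnfrsf11a) had no count in oil after rounding, against 9, 7 and 4 counts in tamoxifen. Osteoprotegerin (Tnfrsf11b), a soluble decoy of RANK ligand, had 2 counts in oil and 5 in tamoxifen. Such levels were at or near the limit of detection, and no fold is given. CD30 (Tnfrsf8) and Tnfrsf19 had no count in any library.

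**Figure D4:**
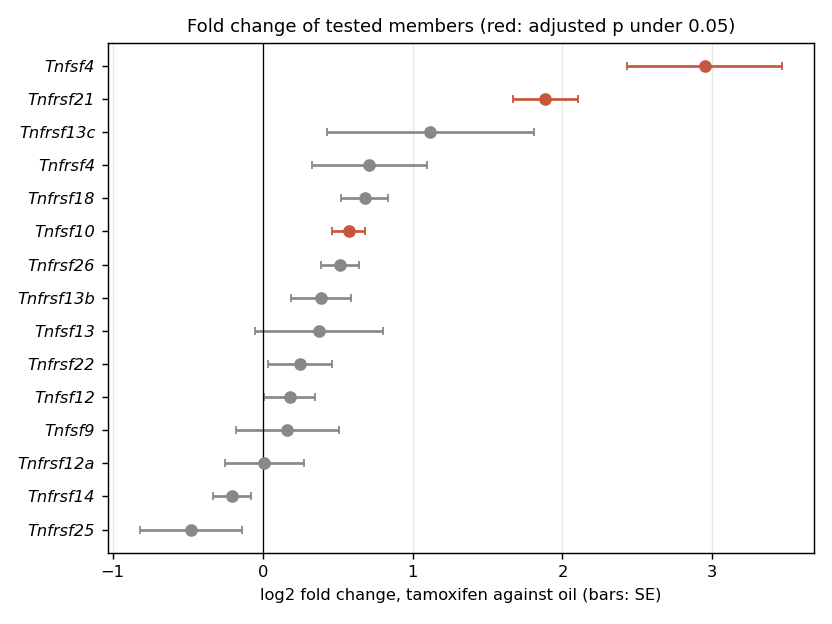
Fitted log2 fold change of tamoxifen against oil for the 15 tested members, with bars for the SE and called members in red. The 3 called members are Tnfsf4 at 2.95, Tnfrsf21 at 1.89 and Tnfsf10 at 0.57.

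Over the 15 tested members, 13 had a positive and 2 a negative log2 fold change, with a median of 0.39, beside a share of 50% positive and a median of 0.00 over all tested genes. The 6 members Tnfrsf21, Tnfsf4, Tnfsf10, Tnfrsf18, Tnfrsf26 and Tnfrsf13b had all tamoxifen libraries above all oil libraries, where 13.3% of all tested genes did. No member had all tamoxifen libraries below, where 11.8% of all tested genes did. These counts describe members that passed a filter on counts and are not independent of it for Tnfsf4. Tnfsf18, which lies 76.2 kb from Tnfsf4, had no count.

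Ligands and receptors were set beside each other in a list of 24 known pairs, which does not hold every known pair. Both partners reached a mean of 1 CPM in at least 1 group in 3 pairs, OX40 ligand with OX40, TWEAK with Fn14 and APRIL with TACI. In 4 pairs only the ligand did, which included TRAIL with Tnfrsf10b and CD137 ligand with CD137. In 7 pairs only the receptor did, which included GITR, HVEM, death receptor 3 and the BAFF receptor. In the other 10 pairs neither reached 1 CPM. Outside the list, TRAIL with its decoy Tnfrsf22, and Eda with Eda2r, also had both partners at 1 CPM, a point added after the values were seen. OX40 ligand reached 1 CPM in tamoxifen only, so its pair met the rule through the group in which it was higher. Its receptor OX40 was not called, nor were TWEAK, Fn14, APRIL or TACI.

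The superfamily genes with other symbols numbered 15, of which 4 were tested and 1 was called. Eda2r, the death-domain-lacking receptor of ectodysplasin A2 and a known p53 target, rose from 0.821 ± 0.237 CPM in oil to 2.91 ± 0.685 CPM in tamoxifen (SD, n = 3). Its values were 0.563, 0.872 and 1.03 CPM in oil 1, 3 and 4 and 2.74, 3.66 and 2.32 CPM in tamoxifen 1, 2 and 4, without overlap (log2 fold change 1.81 ± 0.35 SE, edgeR adjusted p-value 0.0454). The call was lost with limma-voom and with the replicate block. Relt, a receptor close to the family by sequence, had 28.8 ± 2.08 and 37.4 ± 5.64 CPM and was not called (edgeR adjusted p-value 0.183). Eda, the ectodysplasin ligand, had a log2 fold change of -0.55 ± 0.36 (SE, edgeR adjusted p-value 0.401). Tnf was below the filter and is named after its values were seen, with 1, 0 and 2 counts in oil 1, 3 and 4, against 4, 21 and 2 in tamoxifen 1, 2 and 4, so that tamoxifen 2 carried most of them. Fas had no count in oil and 4, 5 and 3 counts in tamoxifen. Of the 15 genes 6, among them Fasl, Cd40 and Cd40lg, had no count in any library.

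Adaptors and enzymes that carry the receptors' signals, such as the TRAF proteins, caspase-8 and the IkB kinases, were examined as a list. Of 40 listed genes 39 were tested and 0 were called by edgeR, with 10 at an unadjusted p-value under 0.05, 7 of them higher and 3 lower, beside 12.6% and 7.99% of all tested genes. DESeq2 called 2 higher, Mlkl and Traf3ip2, beside 6.14% of all genes, and limma-voom called 0. Their median log2 fold change was 0.04, with 25 positive and 14 negative. Mlkl, the executor of necroptosis, had 30.0, 23.4 and 27.2 CPM in oil 1, 3 and 4 and 48.7, 75.5 and 40.4 CPM in tamoxifen 1, 2 and 4, without overlap. Its log2 fold change was 1.03 ± 0.22 (SE, edgeR adjusted p-value 0.0641). The largest log2 fold changes on the list were 1.39 for Traf3ip3 (edgeR adjusted p-value 0.221) and 1.37 for Traf3ip2, an adaptor of interleukin-17 receptors (edgeR adjusted p-value 0.142). Without tamoxifen 4, edgeR called 9 of these genes higher and 4 lower, beside 19.2% and 17.1% of all genes.

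Genes known to respond to TNF and NF-kB numbered 30, of which 16 were tested. None was called by edgeR, and 8 had an unadjusted p-value under 0.05, 7 of them higher and 1 lower, beside 12.6% and 7.99% of all tested genes. DESeq2 called 4 higher, beside 6.14% of all genes, and limma-voom called 0. Of the log2 fold changes, 14 were positive and 2 negative, with a median of 0.35. Rel, an NF-kB subunit, had 0.73, 0.39 and 0.36 CPM in oil 1, 3 and 4 and 2.85, 3.07 and 1.16 CPM in tamoxifen 1, 2 and 4. The groups did not overlap, with tamoxifen 4 nearest to oil (log2 fold change 2.26 ± 0.50 SE, edgeR adjusted p-value 0.0669). Oil 3 and 4, at 8 and 7 counts, were under the low-count filter, so Rel was tested through the tamoxifen libraries. Vcam1, an adhesion molecule that is also a macrophage marker, had a log2 fold change of 1.86 ± 0.42 (SE, edgeR adjusted p-value 0.0696). Its oil 4 level of 0.514 CPM was under that filter too. The summed macrophage and dendritic cell markers, Vcam1 among them, were at 4.02 to 7.60 CPM in oil and 6.69 to 13.2 CPM in tamoxifen. Ier3, an early response gene, had 19.8 ± 0.978 CPM in oil and 37.3, 50.7 and 21.1 CPM in tamoxifen 1, 2 and 4 (edgeR adjusted p-value 0.147). Without tamoxifen 4, edgeR called 11 genes of this list higher and 1 lower, beside the same 19.2% and 17.1%.

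**Figure D5:**
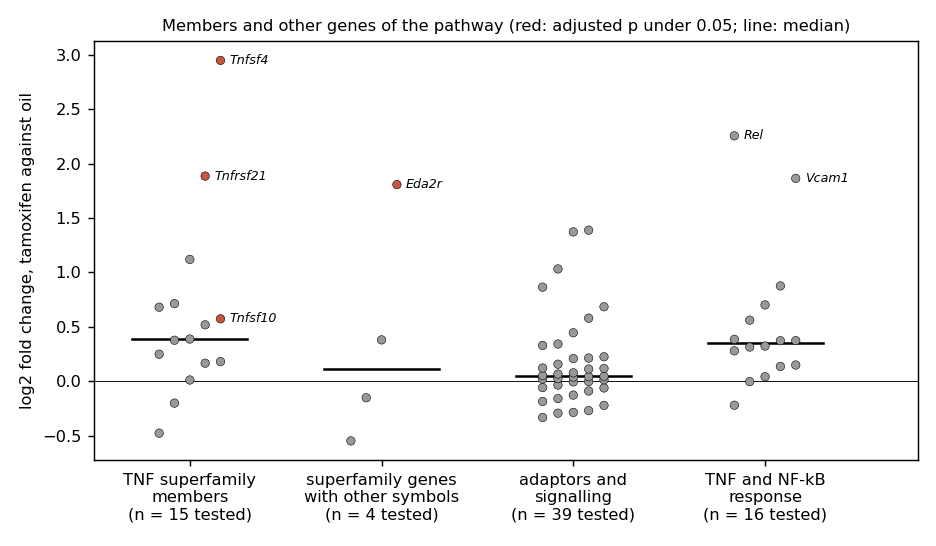
Fitted log2 fold change of tamoxifen against oil for each tested gene of the 31 members, the superfamily genes with other symbols, the adaptors and signalling genes, and the TNF and NF-kB response genes, with called genes in red and a line at each median. The medians are 0.39, 0.11, 0.04 and 0.35, and the called genes are Tnfsf4, Tnfrsf21, Tnfsf10 and Eda2r.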

How the data were processed

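RNA-seq was measured in 6 libraries, 3 for each of oil and tamoxifen, each from a separate mouse. The authors aligned reads to mm10 with STAR, and the submitters' processing notes also name DESeq2; the counter, its strand setting and the annotation are not given in the sources used here. The deposited table holds estimated counts per gene, in steps of 0.5, and 25.9% to 27.3% of values in a library were not whole. Counts were rounded. Oil 3 and tamoxifen 2 in the table have no sample title with the same number, so they were mapped to their group only.

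Genes were filtered with filterByExpr by group, scaled by TMM and tested with the quasi-likelihood F test of edgeR 4.0.16 (R 4.3.3). Alternatives were DESeq2 1.42.0, voom in limma 3.58.1, other scalings and filters, unrounded counts, a replicate block and each library left out. CPM are relative to TMM-scaled totals of tested genes, and the SE was derived from the F statistic. Replicates differed by more than counting noise. Total counts, which set the depth, limit genes under the filter; intervals and floors cover counting error only. Gene positions and exon lengths came from GENCODE M21 on GRCm38, the assembly of mm10, and matched all 31 members. The procedure was tested on simulated data in which the libraries of a group were drawn alike. That simulation did not cover a library that stands apart, as tamoxifen 4 did.

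Members with a mean of 1 CPM in either group or an unadjusted p-value under 0.05 were given per library, and from each other list every called gene and at most 3 with the largest fold changes. Members and lists were chosen with earlier results of these data known. ATAC-seq from the same study was not analysed here. One detail of the mouse strain is not reported here.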

Additional observations from a re-analysis of the deposited data

How the results depend on the processing

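Calls depended most on single libraries. With 1 library left out, edgeR called 0 to 8 members higher, 0 to 2 of the superfamily genes with other symbols, 0 to 9 adaptors higher and 0 to 4 lower, 0 to 11 response genes higher and 0 to 1 lower, and 8 to 2278 genes higher and 0 to 2024 lower over the whole table. Each upper value came without tamoxifen 4, and Tnfrsf21, Tnfsf4, Tnfsf10 and Eda2r were not called when any one of the other 5 libraries was left out. Usp18 then had a log2 fold change of 0.73 to 1.18. DESeq2 called 5 members, 2 adaptors and 4 response genes higher, and 713 genes higher and 231 lower over the whole table, with Usp18 called at 1.0. Limma-voom called 1 member, 0 of the genes with other symbols, and 48 genes higher and 6 lower. Without a low-count filter 4 members, 1 gene with another symbol, 1 adaptor, 2 response genes, 372 genes higher and 61 lower were called, with Usp18 called at 0.99. Among genes with a mean of at least 50 counts the calls were 1 member, 0 genes with other symbols, 120 genes higher and 17 lower; Tnfsf10 missed the threshold there and Tnfsf4 and Eda2r were not tested. The cause of these changes was not tested.

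The replicate block left 1 residual degree of freedom and called 2 members higher, Tnfrsf21 and Tnfsf4, 0 genes with other symbols, and 215 genes higher and 26 lower. Oil 3 and tamoxifen 2 have no partner in it, so its group difference rests on the libraries numbered 1 and 4. Libraries share only a number: deviations from the group means correlated at -0.13 for number 1 and 0.06 for number 4. Of the uncalled genes, 3 members and 1 gene with another symbol changed sign under some setting. Tnfsf13 was at -0.0034 with the replicate block and from -0.16 to 0.59 with 1 library left out (lowest without tamoxifen 2), Tnfsf9 from -0.074 to 0.53 (lowest without oil 3), and Eda at 0.019 with the replicate block. Tnfrsf12a was at -0.0078 with limma-voom, and from -0.11 to 0.18 with 1 library left out, below 0 without oil 3, tamoxifen 1 or tamoxifen 4. Upper-quartile and DESeq2 scaling within edgeR and unrounded counts changed no direction or call of a named gene, with 202 to 231 genes of the whole table called higher and 29 to 30 lower.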
